A study of Homo sapiens with 2 samples.

Results

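The 35 genes described here act in DNA interstrand crosslink repair (the Fanconi anemia pathway), homologous recombination and the ATM and ATR damage checkpoint. They were chosen by gene symbol, from a list drawn up with earlier results of these data known, and are 35 of the 39720 gene symbols in the deposited count table. The rule itself uses no measured value. All 35 had at least 30 counts in the higher library, the minimum for assessing a gene, which 13850 genes met in all. The RNA came from A549, an established human lung adenocarcinoma cell line. For the shDEPDC1B library the cells received a lentiviral short hairpin RNA that targets DEPDC1B, and for the shNC library a lentiviral negative control hairpin. Both were infected in the presence of 5 µg/mL polybrene and harvested on day 2 without further treatment, so neither library comes from cells given a crosslinking agent or radiation, as far as the labels say. Hairpin sequences, and how many were used, are not stated in the labels. Each group has 1 library. The differences therefore lack any replicate check, and p-values are not given. The comparison is between these libraries, and in bulk RNA fewer cells of a type and less RNA per cell cannot be told apart.

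In the Fanconi pathway a core complex of proteins is recruited to a crosslinked fork and ubiquitinates the FANCD2 and FANCI pair, which licenses nucleases to cut the crosslink out. The resulting double-strand break is resected and repaired by strand exchange with an intact copy, a step in which BRCA1, PALB2, BRCA2 and further accessory factors take part. The kinases ATM, which answers double-strand breaks, and ATR, which answers single-stranded DNA, signal to CHEK2 and CHEK1 and hold the cell cycle. Many of these genes are transcribed mainly in S and G2 phase, and several are inherited cancer predisposition genes.

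The libraries hold 18862371 counts (shDEPDC1B) and 18647290 counts (shNC). DEPDC1B itself had 39 counts in shDEPDC1B and 329 in shNC, a log2 ratio of -2.997 [-3.51, -2.52]. Levels are counts scaled to a common library size (CPM), ratios are shDEPDC1B over shNC, and square brackets hold exact 95% intervals that cover counting error only. Of the epithelial markers, KRT8 and KRT18 were at 5674 and 5351 CPM in shDEPDC1B and at 5498 and 5144 CPM in shNC. CDH1 had 2649 counts in shDEPDC1B and 3078 in shNC. EPCAM was low, with 65 counts in shDEPDC1B and 37 in shNC, and was higher in shDEPDC1B (log2 ratio 0.89 [0.29, 1.52]). Of markers of leukocytes, fibroblasts and endothelium, CD3E and DCN were at 0 counts in both libraries, CD68 had 495 counts in shDEPDC1B and 690 in shNC, COL1A1 had 105 and 99, and the other 6 reported here had at most 11 counts. Log2 ratios in this comparison depended on transcript length and GC content across all genes (both together accounted for 26.2% of the variance in a linear fit), and the members' values are therefore given as measured and, further below, after that fit.

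The 35 genes did not move as one. The Fanconi core genes FANCA, FANCE and FANCG were higher in shDEPDC1B, whereas BRCA1, BARD1, BRCA2 and PALB2 and the long genes ATM, ATR, TOPBP1, TP53BP1 and RAD50 were lower. Of the strand exchange factors, XRCC3 was 2.21-fold higher and XRCC2 2.06-fold lower. With a call at 1.5-fold (0.58 on the log2 scale) and an interval that excludes equality, 5 of 35 members were higher (14.3%), against 19.2% of all assessed genes, and 11 were lower (31.4%), against 19.6%. The share called higher is near the background and the share called lower is above it, which is a description with no test. The median log2 ratio was -0.12 over the members and 0.04 over all assessed genes. Summed over the members, the level was 876 CPM in shDEPDC1B and 1109 CPM in shNC, or 194 and 209 CPM per kilobase of transcript.

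**Figure D1:**
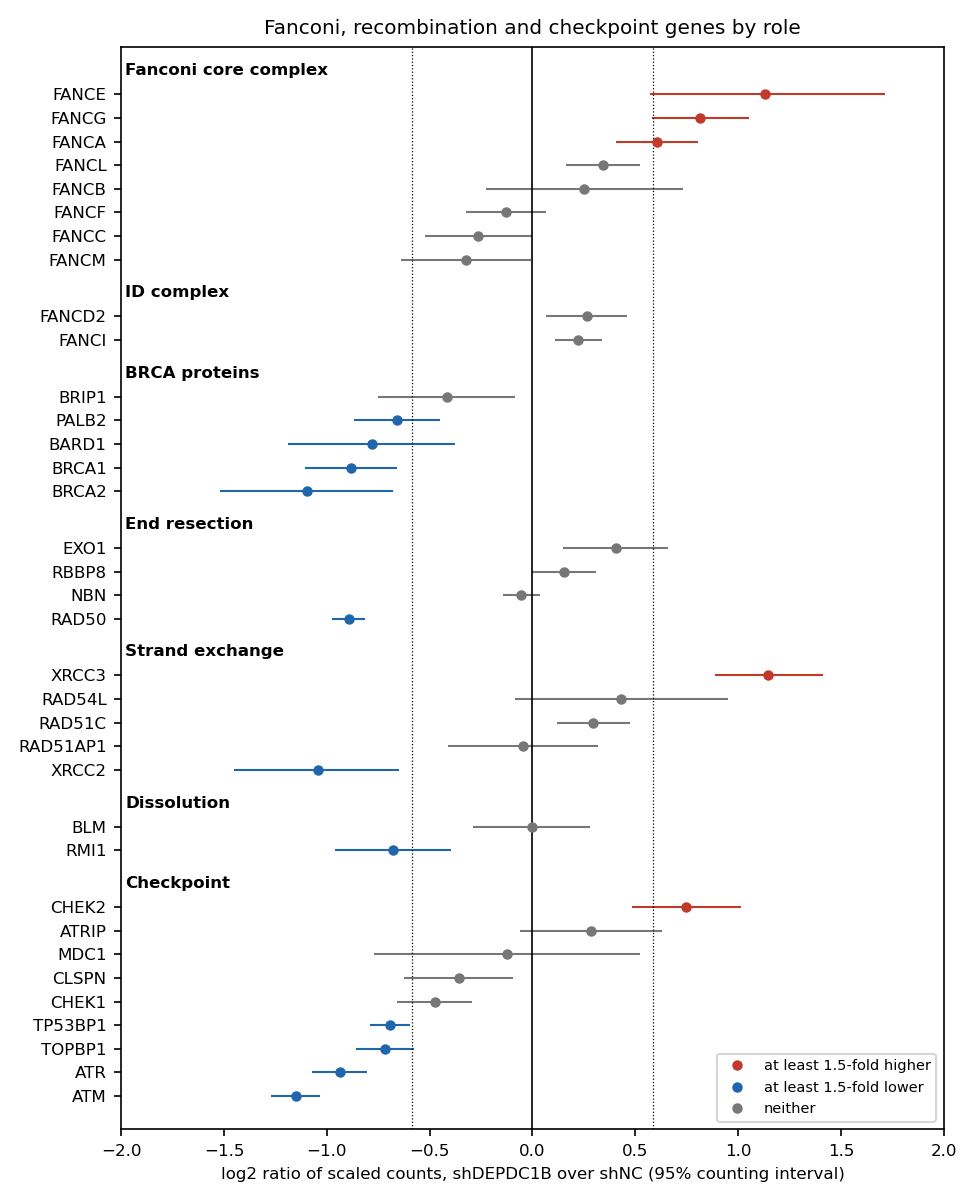
Log2 ratio of scaled counts (shDEPDC1B over shNC) of each of the 35 genes, grouped by role, with exact 95% counting intervals as bars and dotted lines at 1.5-fold. The 5 red points (FANCE, FANCG, FANCA, XRCC3 and CHEK2) lie to the right and the 11 blue points to the left, with 4 of the 5 BRCA proteins and 4 of the 9 checkpoint genes among the blue ones.

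The Fanconi core complex is the ubiquitin ligase assembly of the pathway. FANCA, a scaffold that is the most often mutated gene in Fanconi anemia, had 511 counts in shDEPDC1B and 355 in shNC (28.0 and 18.4 CPM), a log2 ratio of 0.61 [0.41, 0.80]. FANCG, which binds FANCA, had 401 and 241 counts in shDEPDC1B and shNC, a log2 ratio of 0.81 [0.58, 1.05]. FANCE, the subunit that contacts FANCD2, had 83 counts in shDEPDC1B and 40 in shNC, a log2 ratio of 1.13 [0.57, 1.72]. These 3 were the core genes called higher (37.5%, against 19.2% of all assessed genes), and none of the 8 was called lower. After the length and GC fit described below 2 of the 8 were called higher. FANCE was among the least abundant members, so its interval is wide. FANCL, the catalytic E3 subunit, was at 30.7 CPM in shDEPDC1B and 24.2 CPM in shNC (0.34 [0.16, 0.52]), short of the threshold although its interval excluded equality. FANCB, which joins FANCL in the catalytic module, had 80 and 71 counts in shDEPDC1B and shNC, and FANCF, an adaptor encoded by a single exon, had 408 and 472. No difference was detectable at this depth for either, with log2 ratios of 0.25 [-0.23, 0.73] and -0.13 [-0.33, 0.06]. FANCC, the partner of FANCE, had 220 and 279 counts (log2 ratio -0.26) and FANCM, the DNA translocase that anchors the complex to the fork, had 149 and 197 (log2 ratio -0.32 [-0.64, -0.01]). The median over the 8 core genes was 0.30.

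FANCD2 and FANCI form the clamp that the core complex ubiquitinates. FANCD2 had 452 counts in shDEPDC1B and 398 in shNC, a log2 ratio of 0.26 [0.07, 0.46], and FANCI had 1290 and 1168, a log2 ratio of 0.22 [0.11, 0.34]. Both intervals lay above equality, and neither gene reached 1.5-fold. There were 0.35 FANCD2 counts for each FANCI count in shDEPDC1B and 0.34 in shNC, so the ratio of these ratios, which does not depend on how libraries are scaled, was 1.03 [0.88, 1.21].

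All 5 BRCA proteins' genes were below equality with intervals that exclude it, and 4 were called lower (80.0%, against 19.6% of all assessed genes). None of the 5 was called lower after the length and GC fit described below. BRCA1, which promotes resection and recruits PALB2, had 252 counts in shDEPDC1B and 491 in shNC (13.8 and 25.5 CPM), a log2 ratio of -0.88 [-1.11, -0.66]. BARD1, its obligate RING partner, had 80 and 145 counts in shDEPDC1B and shNC, a log2 ratio of -0.78 [-1.19, -0.37]. BRCA2, which acts on resected single-stranded DNA to start strand exchange, had 70 and 158 counts in shDEPDC1B and shNC, a log2 ratio of -1.09 [-1.52, -0.68]. There were 3.15 BRCA1 counts per BARD1 count in shDEPDC1B and 3.39 in shNC, a ratio of ratios of 0.93 [0.67, 1.29] whose interval includes equality. PALB2, the bridge between BRCA1 and BRCA2, had 310 counts in shDEPDC1B and 517 in shNC (log2 ratio -0.66 [-0.87, -0.45]). The interval of the PALB2 to BRCA2 ratio of ratios, 1.35 [0.98, 1.88], included equality. BRIP1, the helicase bound to BRCA1 and also called FANCJ, had 131 and 185 counts in shDEPDC1B and shNC and did not reach 1.5-fold (log2 ratio -0.42 [-0.75, -0.09]).

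Break ends are held and resected by the MRE11, RAD50 and NBN complex with CtIP, the product of RBBP8, and extended by the exonuclease EXO1. RAD50, the ATPase that tethers the ends, had 1872 counts in shDEPDC1B and 3675 in shNC (103 and 191 CPM), a log2 ratio of -0.89 [-0.97, -0.81]. NBN, the subunit that brings in ATM, had 1911 and 2097 counts in shDEPDC1B and shNC, a log2 ratio of -0.05 [-0.14, 0.04]. The proportion of the pair therefore differed, with 0.98 RAD50 counts per NBN count in shDEPDC1B and 1.75 in shNC, a ratio of ratios of 0.56 [0.51, 0.61]. After the length and GC fit described below RAD50 was at -0.33 and NBN at 0.34, and after a loess on length at -0.35 and 0.12. MRE11, the nuclease of the complex and no member here, had 510 and 649 counts in shDEPDC1B and shNC (log2 ratio -0.27). RBBP8 was at 37.7 CPM in shDEPDC1B and 33.9 CPM in shNC, and EXO1 at 15.8 and 11.9 CPM, with log2 ratios of 0.15 and 0.40 [0.15, 0.66], neither called.

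The strand exchange factors had the widest spread of the 7 roles. XRCC3 had 377 counts in shDEPDC1B and 180 in shNC (20.7 and 9.34 CPM), a log2 ratio of 1.15 [0.89, 1.41] and the highest of the 35. The gene lies at chr14:103697609-103715504 on the minus strand (GRCh38). XRCC2 had 78 counts in shDEPDC1B and 170 in shNC (4.28 and 8.82 CPM), a log2 ratio of -1.04 [-1.45, -0.65], and lies at chr7:152644779-152676165 on the minus strand. Both encode accessory factors of strand exchange, with a transcript of about the same annotated length (3018 and 3067 nucleotides). Their GC content differs, at 62.5% for XRCC3 and 42.5% for XRCC2. After the length and GC fit described below XRCC3 was at 0.86 and XRCC2 at -0.93. They sit in different complexes: XRCC3 pairs with RAD51C, and XRCC2 belongs to the complex with RAD51B, RAD51C and RAD51D. RAD51C, which is shared by both complexes, had 567 counts in shDEPDC1B and 488 in shNC (log2 ratio 0.30 [0.12, 0.47]), so that there were 1.504 RAD51C counts per XRCC3 count in shDEPDC1B and 2.71 in shNC (ratio of ratios 0.55 [0.44, 0.69]). RAD51AP1, which stimulates strand pairing, had 123 and 134 counts in shDEPDC1B and shNC, and RAD54L, a DNA motor protein of the same step, had 74 and 58. Neither differed beyond counting error, with log2 ratios of -0.04 [-0.41, 0.32] and 0.43 [-0.08, 0.95].

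BLM, the helicase mutated in Bloom syndrome, and RMI1, its partner in dissolving double Holliday junctions, differed from each other. BLM had 202 counts in shDEPDC1B and 214 in shNC, a log2 ratio of -0.00 [-0.29, 0.28]. RMI1 had 167 and 282 counts in shDEPDC1B and shNC, a log2 ratio of -0.68 [-0.96, -0.39], and was called lower. There were 1.21 BLM counts per RMI1 count in shDEPDC1B and 0.76 in shNC, a ratio of ratios of 1.59 [1.204, 2.11].

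Among 9 checkpoint genes 4 were called lower (44.4%, against 19.6% of all assessed genes) and 1 higher (11.1%, against 19.2%). None of the 9 was called lower after the length and GC fit described below. ATM had 800 counts in shDEPDC1B and 1878 in shNC (43.9 and 97.4 CPM), a log2 ratio of -1.15 [-1.27, -1.03], which was the lowest of the 35. The gene lies at chr11:108222484-108369102 on the plus strand. ATR had 689 and 1395 counts in shDEPDC1B and shNC (37.8 and 72.4 CPM), a log2 ratio of -0.94 [-1.07, -0.81]. TOPBP1, the activator of ATR, had 654 counts in shDEPDC1B and 1136 in shNC (log2 ratio -0.72 [-0.86, -0.58]). TP53BP1, which protects break ends from resection, had 1374 counts in shDEPDC1B and 2346 in shNC (log2 ratio -0.69 [-0.79, -0.60]). ATM, ATR, TOPBP1 and TP53BP1 were thus lower in shDEPDC1B, each with an interval that lies wholly below equality. CHEK2, the kinase that ATM activates, was higher, with 308 counts in shDEPDC1B and 194 in shNC, a log2 ratio of 0.75 [0.48, 1.01].

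CHEK1, the kinase that ATR activates, had 419 counts in shDEPDC1B and 616 in shNC, a log2 ratio of -0.48 [-0.66, -0.29], and CLSPN, the adaptor it needs, had 208 and 282, a log2 ratio of -0.36 [-0.62, -0.10]. Both were below equality without reaching 1.5-fold. As measured, the count of the upstream kinase per count of its downstream kinase was lower in shDEPDC1B in both arms. There were 2.60 ATM counts per CHEK2 count in shDEPDC1B and 9.68 in shNC (ratio of ratios 0.27 [0.22, 0.33]), and 1.64 ATR counts per CHEK1 count in shDEPDC1B and 2.26 in shNC (0.73 [0.62, 0.85]). The ATR transcript is 8249 nucleotides long and the CHEK1 transcript 4153, and the difference of this pair depended on how length was treated. After the length and GC fit described below ATR was at -0.35 and CHEK1 at -0.21 on the log2 scale. After a loess on length they were at -0.40 and -0.38, and after a fit on coding length and GC content at -0.07 and -0.21, where the order turned round. The ATM transcript has 13147 nucleotides and the CHEK2 transcript 1971. ATM was at -0.35 and CHEK2 at 0.61 after the length and GC fit. They were at -0.44 and 0.39 after the loess on length and at -0.21 and 0.95 after the coding-length fit. ATM thus stayed below CHEK2, but by less than as measured. ATRIP, the obligate partner of ATR, had 152 and 132 counts in shDEPDC1B and shNC (log2 ratio 0.28 [-0.06, 0.63]), and the ATR to ATRIP ratio of ratios was 0.43 [0.33, 0.56]. ATR was at -0.35 and ATRIP at 0.25 after the length and GC fit. They were at -0.40 and 0.45 after the loess on length and at -0.07 and 0.21 after the coding-length fit. ATR thus stayed below ATRIP, but by less than as measured. ATRIP shares 1515 exon bases with TREX1 on the same strand, so reads of these genes had to be divided by the counting model. MDC1, the scaffold that reads phosphorylated H2AX, had 40 and 46 counts in shDEPDC1B and shNC (log2 ratio -0.12 [-0.77, 0.52]). Its deposited values carry more decimals than those of the other members, as a mean over several annotated copies would, so the MDC1 interval is uncertain.

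**Figure D2:**
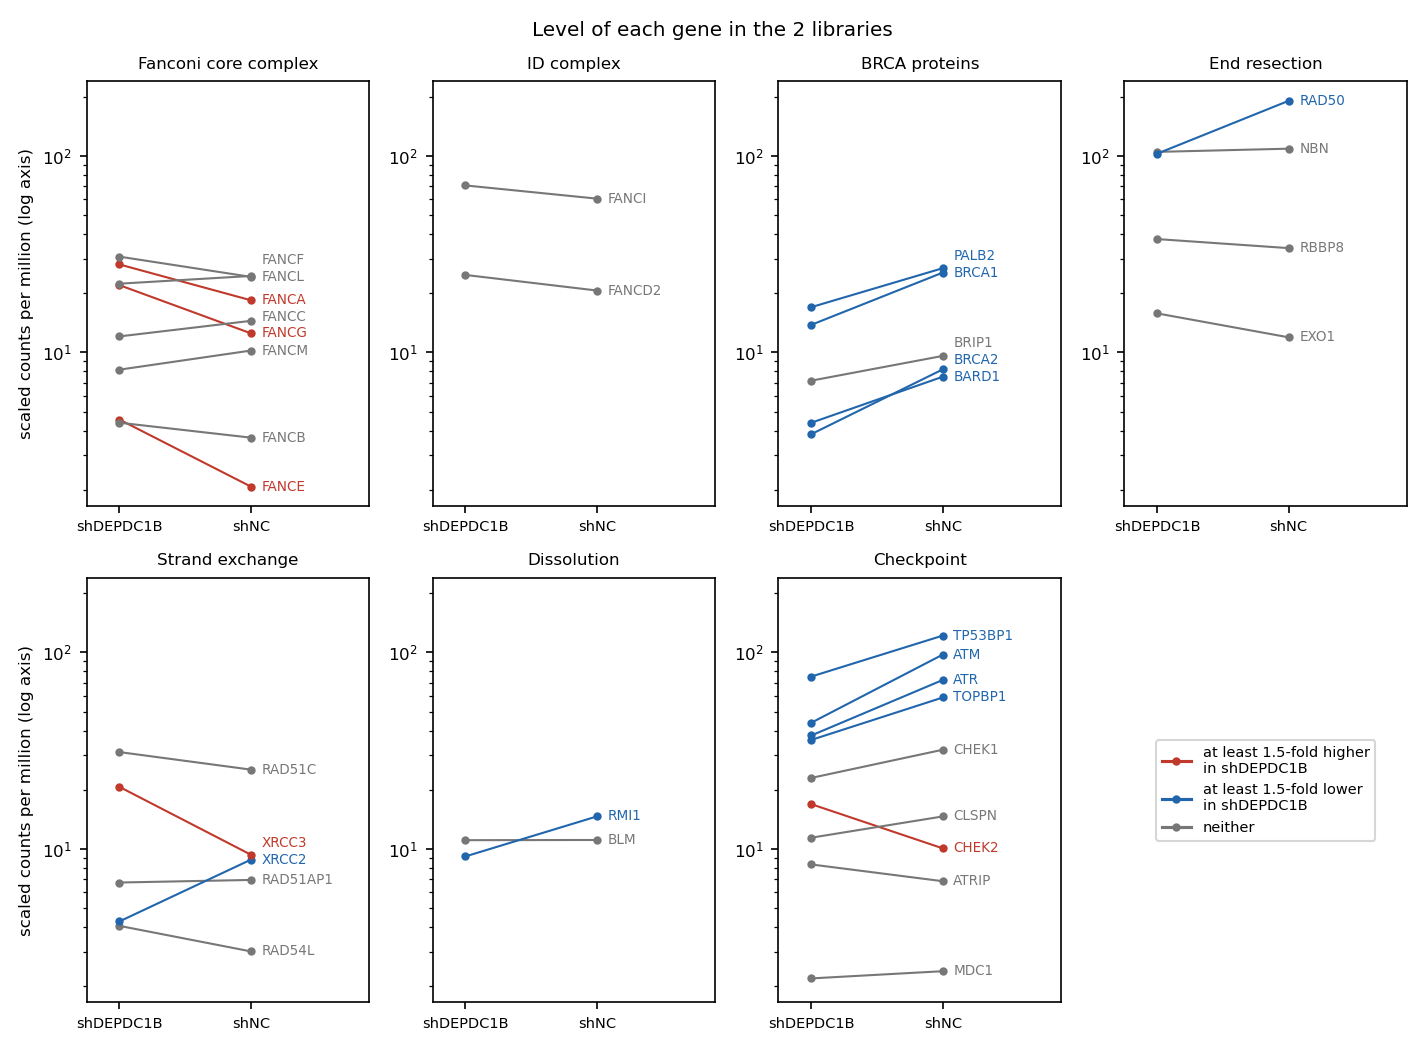
Level of each gene in scaled CPM (log axis) in the shDEPDC1B library (left end of each line) and the shNC library (right end), 1 panel per role. In the strand exchange panel the XRCC3 and XRCC2 lines lie far apart at the shDEPDC1B end and close together at the shNC end: XRCC3 stood at 20.7 CPM and XRCC2 at 4.28 CPM in shDEPDC1B, against 9.34 and 8.82 CPM in shNC.

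Levels of different genes can be set side by side only per transcript length. On that scale NBN was first in both libraries, at 22.5 CPM per kilobase in shDEPDC1B and 23.3 in shNC. RAD50 was at 12.4 CPM per kilobase in shDEPDC1B and 22.9 in shNC, so in shDEPDC1B it stood behind FANCL at 18.1 and FANCI at 14.9, while in shNC it stood directly behind NBN. BRCA2 was the next to last in both, at 0.32 CPM per kilobase in shDEPDC1B and 0.68 in shNC, and MDC1 was last at 0.29 and 0.31. Transcript length here is that of the longest protein-coding transcript in GENCODE 29, and the isoforms used in A549 were not measured.

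The promoters of the 3 members farthest from equality in each direction, by the interval bound nearest to equality, are shown so that the sequence upstream of higher and lower members can be read side by side. Each line gives the 150 bases before the RefSeq start (GRCh38.p14), 5′ to 3′ on the strand of the gene, with matches to the searched motifs in capitals. XRCC3 (chr14:103715452-103715601, minus strand), FANCG (chr9:35079943-35080092, minus) and FANCE (chr6:35452188-35452337, plus) were higher in shDEPDC1B. ATM (chr11:108222917-108223066, plus), RAD50 (chr5:132556827-132556976, plus) and ATR (chr3:142578734-142578883, minus) were lower.

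XRCC3: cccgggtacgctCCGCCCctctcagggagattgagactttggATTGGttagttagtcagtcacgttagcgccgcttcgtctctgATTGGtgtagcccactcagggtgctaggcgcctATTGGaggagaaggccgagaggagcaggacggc
FANCG: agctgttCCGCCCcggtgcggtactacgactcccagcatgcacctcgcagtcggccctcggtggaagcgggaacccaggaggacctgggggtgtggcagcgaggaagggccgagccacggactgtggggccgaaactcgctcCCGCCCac
FANCE: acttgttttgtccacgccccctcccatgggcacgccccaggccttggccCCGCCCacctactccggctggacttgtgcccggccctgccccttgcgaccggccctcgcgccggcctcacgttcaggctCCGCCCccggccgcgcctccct
ATM: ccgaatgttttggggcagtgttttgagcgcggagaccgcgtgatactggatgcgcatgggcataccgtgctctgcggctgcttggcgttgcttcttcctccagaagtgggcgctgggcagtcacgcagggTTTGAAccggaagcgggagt
RAD50: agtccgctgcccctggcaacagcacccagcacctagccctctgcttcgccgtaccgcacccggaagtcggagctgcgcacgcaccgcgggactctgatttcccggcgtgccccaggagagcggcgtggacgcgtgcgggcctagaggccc
ATR: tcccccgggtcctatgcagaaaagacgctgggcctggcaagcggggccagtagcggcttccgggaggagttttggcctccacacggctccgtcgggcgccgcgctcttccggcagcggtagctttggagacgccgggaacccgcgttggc

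The RefSeq start can lie inside the gene as GENCODE annotates it, so a window can include transcribed bases. Other starts of the same gene were not searched. The BRCA1 window, counted among the lower members, lies upstream of its outermost annotated start, so motifs found there need not belong to the main BRCA1 promoter. Motif searches covered both strands of the 250 bases before the start, and 33 of the 35 members had a promoter in the table (not FANCI and NBN). The word CCAAT was in 17 of them (51.5%), against 35.04% of 10317 promoters of assessed genes, and in 3 of 5 members called higher and 4 of 11 called lower. The GC box, spelled GGGCGG, was in 23 members (69.7%), against 67.1% of assessed promoters, and in 5 of 5 higher and 6 of 11 lower members. The cell cycle homology word TTTGAA was in 4 members (12.1%, against 8.33%), including ATM, printed above. An E2F word (TTTCGCGC or TTTGGCGC or TTTCCCGC) was in 1 member (FANCC), or 3.03% against 3.85%, and the NRF1 word CGCATGCG in 0 of 33, against 3.39%. Some of these matches lie before the 150 bases printed. The words CCAAT (on its other strand) and GGGCGG can overlap, as they do in CLSPN. None of these shares was tested, and a missing word says only that these letters are not in the window.

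The members' log2 ratios followed transcript length. Across the 35 genes the log2 ratio had a Spearman correlation of -0.67 with transcript length and 0.51 with GC content, against -0.51 and 0.38 over 12997 assessed genes with an annotated transcript. These are descriptions across genes of the same 2 libraries, which share depth and preparation. The 12 members with the shortest transcripts, of 1698 to 3293 nucleotides, had a median log2 ratio of 0.32, with 4 called higher and 1 lower. In the 11 of middle length it was -0.05, with none higher and 2 lower, and in the 12 longest (5451 to 13147 nucleotides) it was -0.75, with 1 higher and 8 lower. The called members that departed from that order were XRCC2 and FANCA. XRCC2 was lower with a transcript of 3067 nucleotides, and FANCA was higher with 5451 nucleotides and a GC content of 55.4%.

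**Figure D3:**
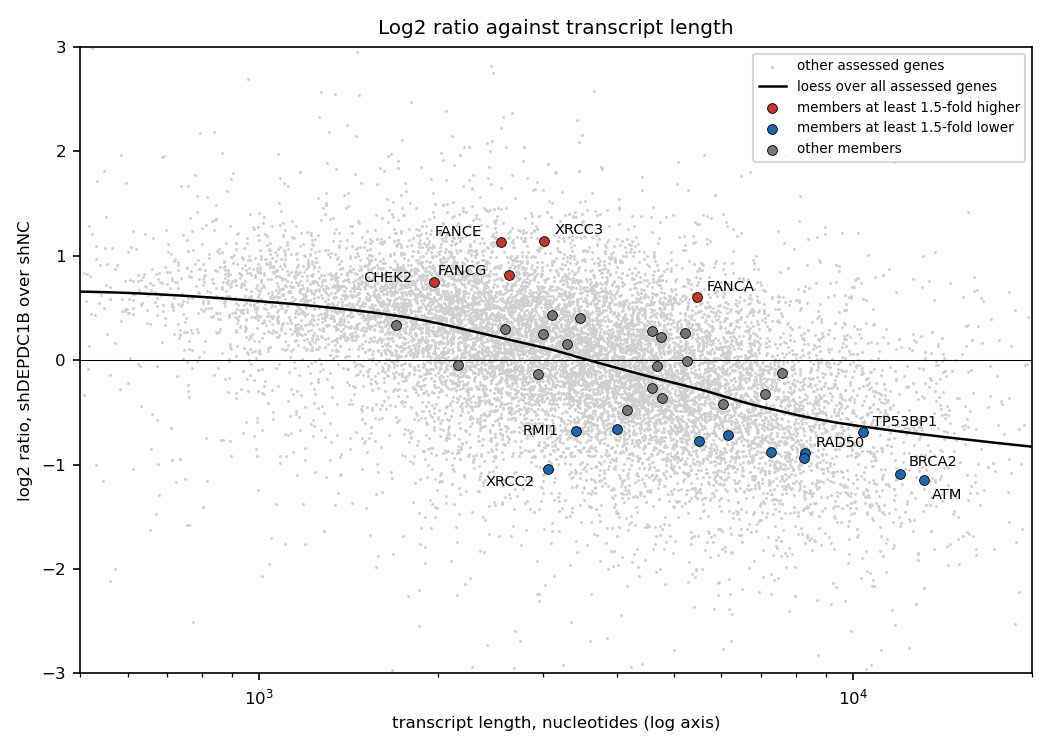
Log2 ratio (shDEPDC1B over shNC) against transcript length in nucleotides (log axis) for the 35 members (large points) and the other assessed genes (small grey points), with a loess curve over all assessed genes. The curve passes from above 0 for short transcripts to below 0 for long ones, and ATM, BRCA2, RAD50 and TP53BP1 lie at its long end, whereas XRCC2 and RMI1 lie well below it and XRCC3, FANCE and FANCA above it. The axes leave out 101 of 12997 genes.

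With the linear fit on length and GC content over all assessed genes subtracted, 1 member was at least 1.5-fold lower, against 13.4% of fitted genes, and 4 were higher (11.4% of 35 members), against 13.0%. The lower one was XRCC2, at -0.93. The 4 higher ones were FANCE (0.87), XRCC3 (0.86), FANCA (0.71) and CHEK2 (0.61), and FANCG was just short of the threshold at 0.56. The other 10 members called lower as measured all kept a value below 0, between -0.44 for PALB2 and -0.12 for TP53BP1. ATM was at -0.35, ATR at -0.35, RAD50 at -0.33, BRCA1 at -0.39 and BRCA2 at -0.28.

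FANCD2 and FANCI were at 0.58 and 0.51 after the fit, and EXO1 at 0.57. The members' median became 0.17, against 0.04 for all fitted genes. After a loess on length alone the members' median was -0.06 and kept the sign it had as measured. The sign of the median thus depends on which fit is used. By role, the median after the length and GC fit was 0.37 for the core complex, 0.34 for the strand exchange factors, -0.33 for the BRCA proteins and -0.12 for the checkpoint genes. A dependence on length remained among the members after the fit (Spearman -0.45 across the 35). Whether length dependence in these libraries comes from RNA quality, library preparation or the cells was not tested.

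**Figure D4:**
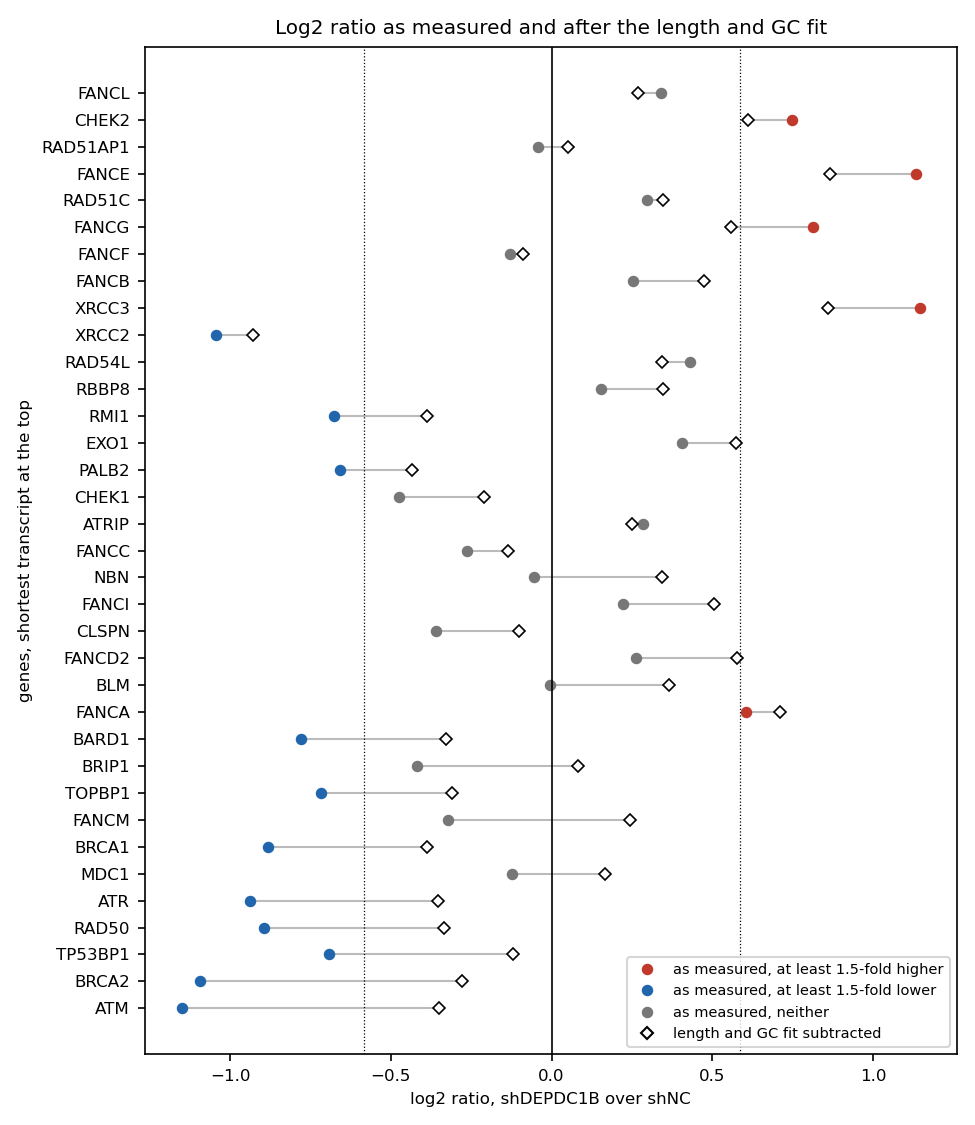
Log2 ratio of each member as measured (filled circles) and after the length and GC fit (open diamonds), with the shortest transcript at the top and dotted lines at 1.5-fold. Diamonds of the longest genes move towards 0 (ATM to -0.35 and BRCA2 to -0.28), while XRCC2 stays at -0.93 and FANCA, FANCE, XRCC3 and CHEK2 stay beyond 1.5-fold.

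Several members lie over other genes, and the labels do not say whether the libraries kept strand, so reads of such genes may not be separable. XRCC3 shares 5756 exon bases with KLC1 on the opposite strand, which had 1734 counts in shDEPDC1B and 2352 in shNC (log2 ratio -0.36 [-0.45, -0.27]) and so differed in the opposite direction from XRCC3. FANCA shares 2302 exon bases with ZNF276, at 395 and 387 counts in shDEPDC1B and shNC (log2 ratio 0.11 [-0.10, 0.32]). TP53BP1 shares 3732 bases with TUBGCP4, which had a log2 ratio of -0.40 [-0.60, -0.21]. RAD50 shares 7784 bases with AC116366.3, annotated on the same strand, and CHEK2 has several annotated pseudogenes whose reads could be assigned to it or taken from it. FANCE and XRCC2 share no exon bases with another annotated gene.

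Other genes of the same pathways, taken from lists of non-members, were spread in both directions. Of 42 further Fanconi and recombination genes, 9 were called higher (21.4%) and 8 lower (19.0%), near the shares over all assessed genes, with a median log2 ratio of -0.08. UBE2T, the E2 enzyme of FANCL, had 566 counts in shDEPDC1B and 298 in shNC (log2 ratio 1.01 [0.80, 1.21]), and EME1, a partner of the nuclease MUS81, had 175 and 85 (1.12 [0.74, 1.51]). RIF1, which acts with TP53BP1, had 833 counts in shDEPDC1B and 2890 in shNC (log2 ratio -1.71 [-1.83, -1.60]). ABRAXAS1, the scaffold of the BRCA1-A complex, had 128 and 405 counts in shDEPDC1B and shNC (-1.58 [-1.88, -1.29]), REV3L, the catalytic subunit of polymerase zeta, 513 and 1052 (-0.96), and WRN, the helicase of Werner syndrome, 455 and 853 (-0.83).

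In 22 other checkpoint genes 4 were higher (18.2%, against 19.2% of all assessed genes) and 1 lower (4.55%, against 19.6%), with a median log2 ratio of 0.22. The higher ones were the phosphatases CDC25A (182 counts in shDEPDC1B and 116 in shNC, log2 ratio 0.73), CDC25B (0.68) and CDC25C (1.17) and the inhibitory CDK1 kinase PKMYT1 (0.84). The lower one was ETAA1, an activator of ATR (460 counts in shDEPDC1B and 781 in shNC, log2 ratio -0.68 [-0.85, -0.52]). The cyclin-dependent kinase inhibitor CDKN1A was at 536 CPM in shDEPDC1B and 558 CPM in shNC (log2 ratio -0.06), not past the threshold.

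End joining genes were split, with 2 higher and 2 lower of 11. The DNA-PK catalytic subunit PRKDC had 5324 counts in shDEPDC1B and 13939 in shNC (log2 ratio -1.31 [-1.35, -1.26]) and the ligase LIG4 had 227 and 570 (-1.25), while PAXX (1.30) and XRCC1 (0.60) were higher. Of 7 mismatch repair genes 3 were lower (MLH3 at -0.85, PMS2 at -0.72 and MSH6 at -0.62) and none higher. Nucleotide excision repair had 3 higher and 4 lower of 18, among them RAD23B at -0.80, ERCC5 at -0.75, GTF2H5 at 0.61, UVSSA at -0.64 and ERCC8 at -0.60. Base excision repair had 4 higher and 2 lower of 17, among them the uracil glycosylase UNG (334 counts in shDEPDC1B and 739 in shNC, log2 ratio -1.07), with TDG at -0.80, NTHL1 at 0.86, MBD4 at 0.59 and OGG1 at 0.66. Over all assessed genes 19.2% were called higher and 19.6% lower, and with so few genes per list no difference from these shares was tested. The list medians were 0.29 for end joining, -0.39 for mismatch repair, 0.05 for nucleotide excision repair and 0.42 for base excision repair. After the length and GC fit, of the genes of these other lists named here as called, PRKDC (-0.62), LIG4 (-0.88), RIF1 (-0.82), ABRAXAS1 (-1.24), PMS2 (-0.70), ERCC8 (-0.59), TDG (-0.60) and UNG (-1.27) were still called lower, and EME1 (0.97), CDC25A (0.75), CDC25C (1.05), GTF2H5 (1.17) and MBD4 (0.61) higher. The others lost their call. Of these, REV3L was at -0.25, WRN at -0.42, ETAA1 at -0.41, MLH3 at -0.32, MSH6 at -0.09, RAD23B at -0.56, ERCC5 at -0.43 and UVSSA at -0.03, and UBE2T was at 0.58, CDC25B at 0.53, PKMYT1 at 0.37, PAXX at 0.38, XRCC1 at 0.37, NTHL1 at 0.11 and OGG1 at 0.40.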

How the data were processed

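RNA was measured in 1 library per group, grouped by the treatment label. The authors deposited 1 table of estimated counts by gene symbol. The submitters' processing notes name Bowtie2, RSEM and the build hg38. Tool versions, gene annotation, strandedness and RNA selection are not stated there. The estimated counts were rounded to whole numbers and scaled with TMM factors (edgeR 4.0.16 in R 4.3.3; 0.967 for shDEPDC1B and 1.03 for shNC). With 1 library per group no test was run. Ratios carry exact Clopper-Pearson 95% intervals (scipy 1.17.1), and the labels mention no molecular identifiers, so intervals cover counting error only. Genes needed 30 counts in the higher library, and a call needed 1.5-fold and an interval that excludes equality. Ratios of ratios carry exact conditional intervals.

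Length, GC content and positions are from GENCODE 29 (GRCh38), in which all 35 symbols were found, and promoters from RefSeq (GRCh38.p14). The linear fit and the loess (span 0.3) used all assessed genes with an annotated transcript (93.8% of them). The procedure was tested on simulated data. Members, roles and gene lists were chosen with earlier results of these data known. All members are named, and of other lists up to 6 called genes with the interval bound farthest from equality, in addition to MRE11 and CDKN1A, which were chosen after their values were seen. Some genes that this rule names are not reported here. Alternatives covered scaling, count minimum, threshold, prior count, length, GC and expression fits, a coding-length fit and overlapping genes. The last 2 were added after the data were seen.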

Additional observations from a re-analysis of the deposited data

How the results depend on the processing

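DESeq2 1.42.0 size factors, library totals, upper-quartile factors, other count minimums, a prior count of 2 and a loess on mean expression left 11 members lower and 4 or 5 higher. FANCA, at 0.61, dropped under 1.5-fold with DESeq2 factors, library totals and the expression loess, and FANCE was left out by a minimum of 100 counts. A call at 2-fold kept 2 higher (FANCE and XRCC3) and 3 lower (BRCA2, XRCC2 and ATM). The lower count rests on the treatment of transcript length. It was 1 after the length and GC fit, where FANCG was no longer called higher and the median log2 ratio was 0.17, and 2 (XRCC2 and RMI1) after a loess on length alone, where CHEK2 was no longer called higher. The median after that loess was -0.06. A fit on coding length and GC content gave 12 higher and 1 lower with a median of 0.28. Without the 8 members that share long exon stretches with another gene or look like a mean over copies, 3 of 27 were higher and 8 lower. The share of all assessed genes called was computed only for the main setting and for the length and GC fit. Counts of members under the other settings therefore cannot be set against all genes. Of the values of single members under alternatives, 62 moved beyond the counting interval and 319 did not. The 319 include all values under other count minimums, which cannot change a ratio, so that number overstates the stability. No called member changed sign. The alternatives on coding length and on shared exons were chosen after seeing the data. Low counts limit FANCE, FANCB, RAD54L, BRCA2, XRCC2, BARD1 and MDC1 most. No paired analysis was possible because each group has 1 library, and for the same reason no library could be left out.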

Other observations

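Of the 35 members, 9 have an assessed gene that starts on the opposite strand within 1000 bases before their own outermost annotated start. In 1 such pair both genes were called higher in shDEPDC1B, in 1 both were lower, in 4 only 1 of the pair was called and in 3 neither was. The same counts over all genes with such a partner were not computed, so these say nothing particular about the members. XRCC3 stands 226 bases from ZFYVE21, an endosomal zinc finger gene, which had 780 counts in shDEPDC1B and 419 in shNC, a log2 ratio of 0.98 [0.80, 1.15] beside 1.15 for XRCC3. The outermost annotated start of BRCA1 lies 236 bases from that of NBR1, an autophagy receptor gene. NBR1 had 1572 counts in shDEPDC1B and 3552 in shNC, a log2 ratio of -1.10 [-1.18, -1.01] beside -0.88 for BRCA1. BRCA1 has 26 annotated coding transcripts, and which start is used in A549 was not measured. The main BRCA1 promoter therefore need not be the one beside NBR1. RMI1 and PALB2 were called lower, but HNRNPK (95 bases from RMI1) was at 0.18 [0.14, 0.22] and DCTN5 (82 bases from PALB2) at 0.02 [-0.07, 0.10]. Partners that start inside a member were not counted in these pairs. Of genes that overlap a member on the opposite strand, NPAT shares 143 exon bases with ATM and was called lower like ATM (-0.69 [-0.96, -0.41]). HSCB shares 301 with CHEK2 and was not called (0.10 [-0.20, 0.40]), although CHEK2 was higher. These values describe 2 libraries and were not tested.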
